A study of Mus musculus with 4 samples.

Results

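The Wnt ligands, their Frizzled (Fzd) receptors and their secreted antagonists were followed in the skin of GSDMD KO and WT mice given bleomycin (BLM). The genes were taken by symbol: every numbered Wnt, Fzd, Sfrp and Dkk gene of the deposited table, and Wif1. This gave 38 of 24441 genes, namely 19 Wnt ligands, 10 Frizzled receptors and 9 secreted antagonists (4 Sfrp genes, with the Dkk genes and Wif1 making up the other 5). The rule uses the symbol alone.

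Wnt proteins are secreted, lipid-bearing signals that act over short distances. In the canonical branch a Wnt binds a Frizzled receptor together with Lrp5 or Lrp6, beta-catenin is spared from destruction, and it joins the TCF and LEF factors on DNA. Sfrp proteins and Wif1 bind the ligands outside the cell, whereas Dkk proteins act on the Lrp co-receptors. In skin the pathway is best known for starting hair follicles and driving their growth phase, for the upkeep of the basal epidermis, and for activating fibroblasts in fibrosis.

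All 4 libraries came from female C57BL/6 mice of postnatal week 8 that received BLM under the skin every other day, a treatment that produces a scleroderma-like fibrosis, and lesional skin was collected at day 28. There were 2 libraries labelled GSDMD-/- (KO) and 2 labelled wild type (WT). GSDMD is gasdermin D, the pore-forming protein of pyroptosis. No library of untreated skin was analysed here, so the values compare genotypes within BLM-treated skin. The labels number the libraries without describing the animals behind them, and the p-values measure the spread between these libraries only.

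The table gives FPKM, fragment numbers divided by transcript length and by library depth, so levels can be set side by side between genes. From the steps between low values the depth was estimated at 12810000 to 17540000 fragments per library, which is approximate. A count of 3 fragments on 1 kb of transcript would stand at 0.171 to 0.234 FPKM, which was taken as the floor and covers counting error only. Gsdmd stood at 14.0 and 18.2 FPKM in WT, compared with 3.53 and 2.26 in KO. The epidermal keratin Krt14 was at 1210 FPKM or more in every library. Skeletal muscle genes were also abundant, and their list of 6 summed to 21100 and 20100 FPKM in WT, compared with 13200 and 13100 in KO. KO replicate 2 stood apart from the other libraries on the first principal component, at 75.4 against -53.9 to 6.17, and it had the lowest value for 8 of 8 fibroblast markers. Values without it are given for the Wnt, Fzd and antagonist genes that it moved most, and not for the pathway and marker lists.

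What makes a Wnt ligand a signal is a fatty acid on a single serine, which the acyltransferase Porcn attaches and the esterase Notum removes. The coding bases around this serine were found in 19 of 19 ligands by their conserved protein pattern, and 30 bases are shown for the ligands the results turn on, with the codon of the modified serine in capitals. In Wnt3a it is residue 209. The sequences are those of the GENCODE transcripts on mm9, each in a coding exon and in the 5′ to 3′ direction of the gene.
Wnt4: tgcaagtgtcacggggtgTCGggctcctgc
Wnt10a: tgcaaatgccacggcaccTCAggcagctgc
Wnt3: tgtaaatgccacgggttgTCCggcagctgc
Wnt7b: tgtaagtgtcacggtgtgTCAggctcctgt
Wnt3a: tgcaaatgccacgggctaTCTggcagctgt
Wnt6: tgtaagtgccatgggcttTCGggttcctgc
Wnt11: tgtaaatgccatggggtgTCTggctcctgc
Wnt9a: tgcaaatgccatggtgtgTCTggctcctgc
Wnt2: tgcaagtgtcatggtgtgAGTggctcctgt

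These stretches lie on the plus strand at chr4:136852254-136852283 (Wnt4, exon 5), chr1:74849724-74849753 (Wnt10a, exon 4), chr11:103673622-103673651 (Wnt3, exon 4), chr1:74830740-74830769 (Wnt6, exon 4), chr7:105998764-105998793 (Wnt11, exon 6) and chr11:59144422-59144451 (Wnt9a, exon 4). On the minus strand they lie at chr15:85368242-85368271 (Wnt7b, exon 4), chr11:59063555-59063584 (Wnt3a, exon 4) and chr6:17958792-17958821 (Wnt2, exon 4). Wnt3, the closest to Wnt3a among the ligands compared, shared 25 of the 30 bases with it, Wnt10a shared 24, and Wnt2 shared 20. The codon itself was tabulated for 18 ligands: Wnt2 and Wnt2b used AGT, and the other 16 used one of the TCN codons. No 2 of the 38 genes shared more than 47 identical bases in a row in their transcripts.

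Most of the measurable genes of the group were higher in GSDMD KO mice, and none passed the threshold after adjustment. The fit with limma covered 28 of the 38 genes, those reaching 1 FPKM in 2 or more libraries, and used log2(FPKM + 1), a scale that understates the change of low genes. At an adjusted p under 0.05, with a log2 fold change above 1 in either direction, 0 of 28 were called, against 0% of the 13027 genes tested. The smallest adjusted p over all genes was 0.19, and 9 of the 28 had an unadjusted p under 0.05 at any fold change, as had 2230 of all genes. For 2 libraries against 2, the smallest p that a two-sided exact permutation test can reach is 0.333.

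With an unadjusted p under 0.05 in limma and a log2 fold change above 1, 7 of 28 genes (25.0%) were higher in KO, against 6.16% of all tested genes. These were the ligand Wnt10a, the receptors Fzd1, Fzd2 and Fzd6, and the antagonists Sfrp1, Dkk3 and Wif1. Wif1 passed the filter on low values only through KO, the group in which it is high. Among genes reaching 1 FPKM in at least 1 library of each genotype, a restriction chosen after seeing the data, the count was 6 of 26 (23.1%), against 5.78% of 12609 genes. None of the 28 was lower by the same rule, against 4.14% of all genes. With median-ratio scaling the count was 4 (Fzd1, Fzd6, Sfrp1 and Wif1), and the shares of all genes became 4.86% higher and 5.43% lower. Without WT replicate 2 2 genes were higher, Fzd1 and Fzd6, against 2.04% of all genes, and Fzd4 was past the limits as lower, against 1.86%. Leaving out KO replicate 1 gave 5 higher and 4 lower genes, against 10.8% and 12.3%. Only Fzd1 and Fzd6 stayed past these limits in every setting tried.

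Counted by values alone, both KO libraries lay above both WT libraries for 16 of 28 genes (57.1%), against 35.3% of all tested genes. Both lay below for 3 of 28 (10.7%), against 20.5%. The 3 were Fzd4, Wnt9a and Wnt11. Wif1 and Fzd5, counted among the 16, passed the filter on low values only through KO. Without such genes 14 of 26 (53.8%) lay above and 3 (11.5%) below, against 34.3% and 20.0%. The median log2 fold change was 0.49 over the 28 genes and 0.11 over all genes. By class it was 0.35 for 12 ligands, 0.78 for 9 receptors and 0.41 for 7 antagonists. Without Wif1 the antagonist median was 0.15. The median of all 7 antagonists, Wif1 included, turned to -0.11 when KO replicate 1 was left out. Leaving out KO replicate 2 instead gave 1.11. Without KO replicate 1 the number of genes lying below WT became 10 of 28, against 37.0% of all tested genes in that setting. Without KO replicate 2 the number above WT became 23 of 28, against 46.5%.

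**Figure D1:**
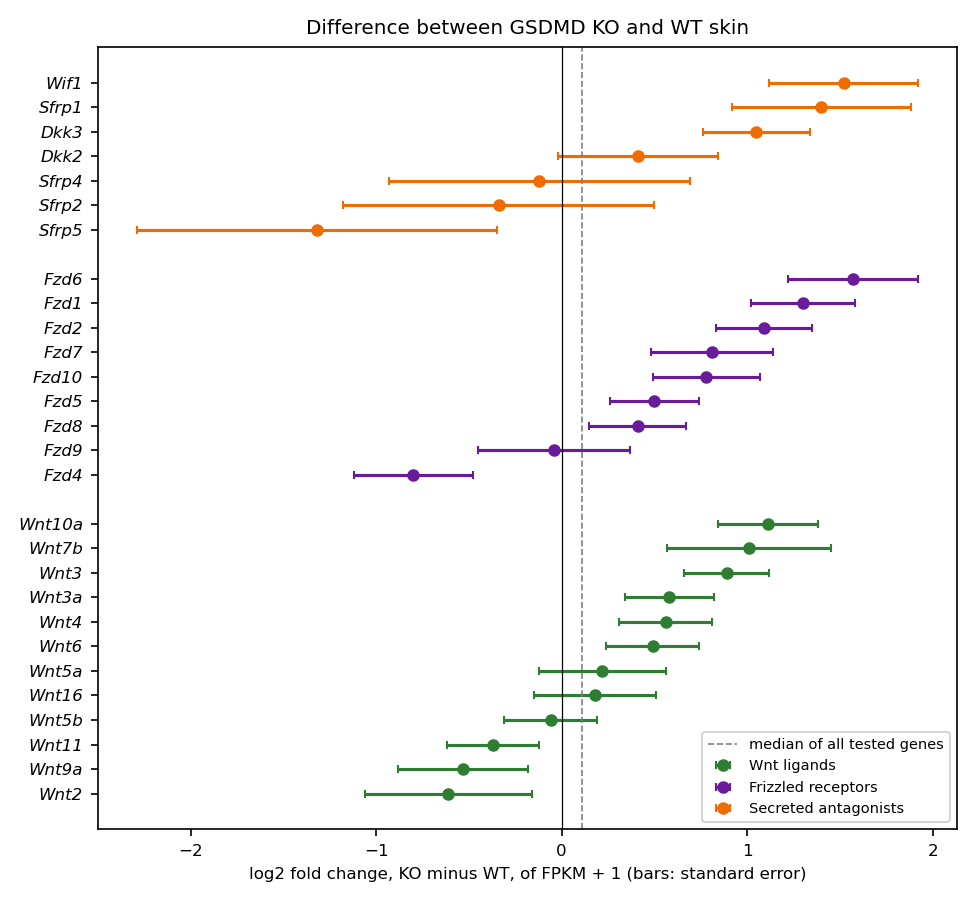
Log2 fold change (KO minus WT) of the 28 tested genes by class, with standard errors from limma and the median of all tested genes as a dashed line. Receptors run from -0.80 for Fzd4 to 1.57 for Fzd6, and the bars of Sfrp2, Sfrp4 and Sfrp5 are the widest.

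Of the 12 tested ligands, 6 lay above WT in both KO libraries and 2 lay below, against 35.3% and 20.5% of all tested genes. Wnt4, a ligand of the basal epidermis that is also made in dermis, was the most abundant in every library, with 19.5 and 18.4 FPKM in WT, compared with 32.4 and 24.7 in KO. The groups did not overlap, and the log2 fold change was 0.56 (SE 0.25, adjusted p = 0.328 by limma). Wnt10a, which is needed for teeth, hair and sweat glands, came next at 8.20 and 7.47 FPKM in WT, compared with 15.2 and 21.4 in KO. Its KO mean was 2.34 times its WT mean (log2 fold change 1.11, SE 0.27, unadjusted p = 0.00877 and adjusted p = 0.248 by limma). Without KO replicate 1 its adjusted p was 0.0304, in a fit with a single KO library in which 2058 of all genes were called, and the other omissions gave 0.307 to 0.941.

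Wnt3, a canonical ligand of the follicle and epidermis, showed the tightest replicates of the group. It had 5.20 and 4.90 FPKM in WT, compared with 10.3 and 10.1 in KO, or 5.05 ± 0.208 against 10.2 ± 0.172 (SD, n = 2). The log2 fold change was 0.89 (SE 0.23, adjusted p = 0.248 by limma), and it stayed between 0.85 and 0.92 whichever library was left out. Its relative Wnt3a had 1.81 and 1.61 FPKM in WT, compared with 2.84 and 3.27 in KO, again without overlap. Wnt6 had 1.93 and 1.75 FPKM in WT, compared with 3.33 and 2.64 in KO. Both had a log2 fold change near that of Wnt4, 0.58 for Wnt3a and 0.49 for Wnt6.

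Wnt7b, made in the follicle and able to drive its growth phase, varied most among the higher ligands. It had 5.14 and 2.82 FPKM in WT, compared with 12.7 and 5.97 in KO, so KO replicate 2 was only slightly above WT replicate 1. Its log2 fold change was 1.01 (SE 0.44, unadjusted p = 0.0676 and adjusted p = 0.314 by limma), and it ran from 0.52, with KO replicate 1 left out, to 1.49, with KO replicate 2 left out. Leaving out WT replicate 2 gave 0.67. The Wnt7b locus overlaps exons of the antisense gene AU022754, and whether reads were counted by strand is not given in the sources used here.

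**Figure D2:**
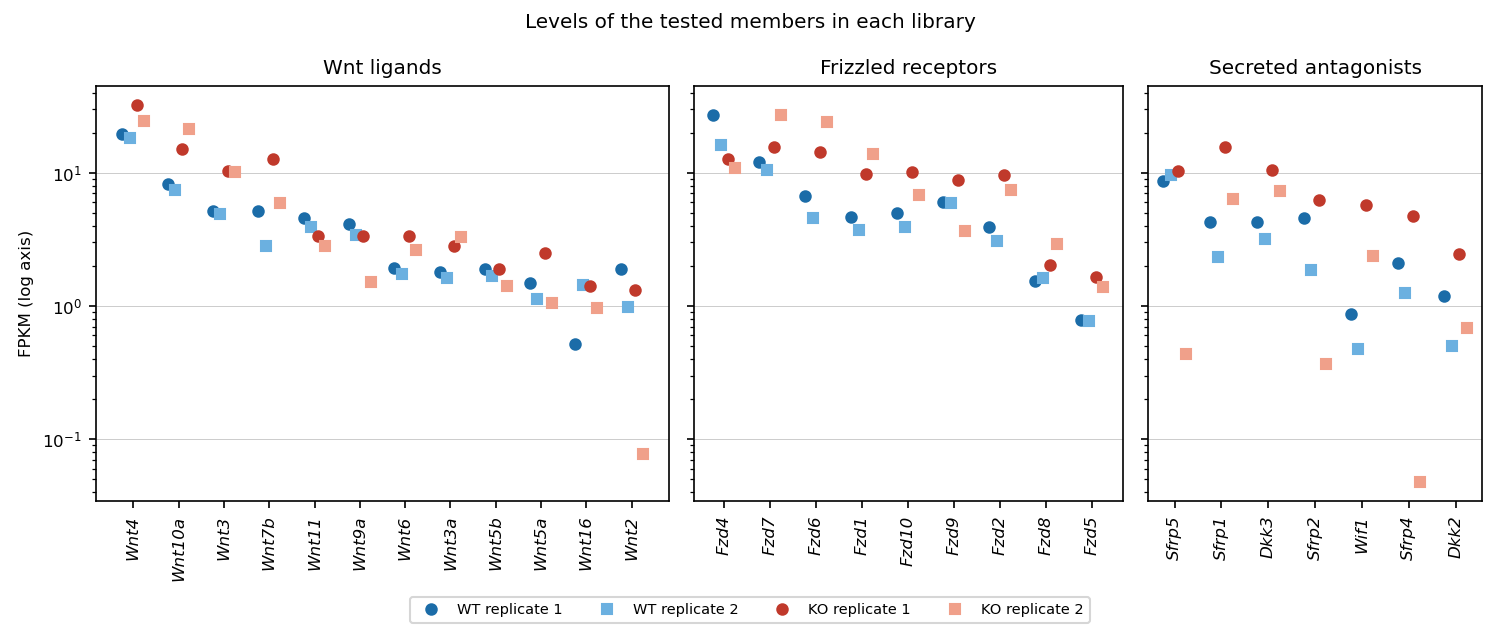
FPKM on a log axis of the 28 tested genes in each of the 4 libraries, ordered by mean level within each class. Wnt4 leads the ligands in all 4 libraries, and Fzd4 leads the receptors in WT but not in KO. The lowest values of Wnt2, Sfrp2, Sfrp4 and Sfrp5 are those of KO replicate 2.

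A pair of ligands was lower in both KO libraries. Wnt11, which signals mainly without beta-catenin, had 4.59 and 3.90 FPKM in WT, compared with 3.34 and 2.80 in KO (log2 fold change -0.37, SE 0.25, adjusted p = 0.451 by limma). Wnt9a, better known from joints and cartilage, had 4.16 and 3.42 FPKM in WT, compared with 3.36 and 1.52 in KO. KO replicate 1 lay just under the lower WT library. The log2 fold change was -0.53 with both KO libraries, -0.92 without KO replicate 1 and -0.13 without KO replicate 2. The skeletal muscle list moved the same way, with 5 of its 6 genes below WT in both KO libraries, as did the macrophage list, with 5 of 7 (sums of 1450 and 1280 FPKM in WT, compared with 508 and 66.0 in KO). The part of both lists in these values was not tested. Wnt11 shares exon bases with the antisense gene Gm8398.

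The other 4 tested ligands overlapped between genotypes. Wnt5a, the main ligand of the branch without beta-catenin, had 1.49 and 1.12 FPKM in WT, compared with 2.50 and 1.05 in KO. Its relative Wnt5b had 1.88 and 1.67 FPKM in WT, compared with 1.91 and 1.42 in KO. Wnt16 stood at 0.519 and 1.43 FPKM in WT, compared with 1.41 and 0.964 in KO. For Wnt5b the standard error of 0.25 exceeded the log2 fold change of -0.06, and for Wnt5a and Wnt16 it was 0.34 against 0.22 and 0.33 against 0.18. Wnt5a shares exon bases with the antisense gene Gm2670.

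Wnt2, a ligand of dermal and other stromal cells, had 1.91 and 0.989 FPKM in WT, 1.32 FPKM in KO replicate 1 and 0.0770 FPKM in KO replicate 2. The last value lies below the floor of that library. Its log2 fold change was -0.61 with all libraries, -1.16 without KO replicate 1 and -0.05 without KO replicate 2. The other 7 ligands were not tested. Wnt10b reached 1.04 FPKM in KO replicate 1 and 0.225 to 0.713 FPKM elsewhere, whereas Wnt1, Wnt2b, Wnt7a, Wnt8a, Wnt8b and Wnt9b stayed at or below 0.480 FPKM in every library.

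The 19 ligands summed to 57.7 and 50.4 FPKM in WT, compared with 92.5 and 76.8 in KO. The leading ligand kept its place. Wnt4 contributed 33.8% and 36.4% of the sum in WT and 35.0% and 32.2% in KO. Wnt6 kept a share of 3.34% to 3.60% in all 4 libraries. Among the shares that separated the genotypes were those of Wnt3 (9.0% and 9.72% in WT, 11.1% and 13.1% in KO), Wnt11 (7.95% and 7.73% against 3.61% and 3.65%) and Wnt9a (7.20% and 6.77% against 3.63% and 1.98%). Wnt10a was also apart, at 14.2% and 14.8% in WT and 16.5% and 27.8% in KO. A share within a library does not depend on how the libraries are scaled, but a larger share of one gene lowers the shares of the others.

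**Figure D3:**
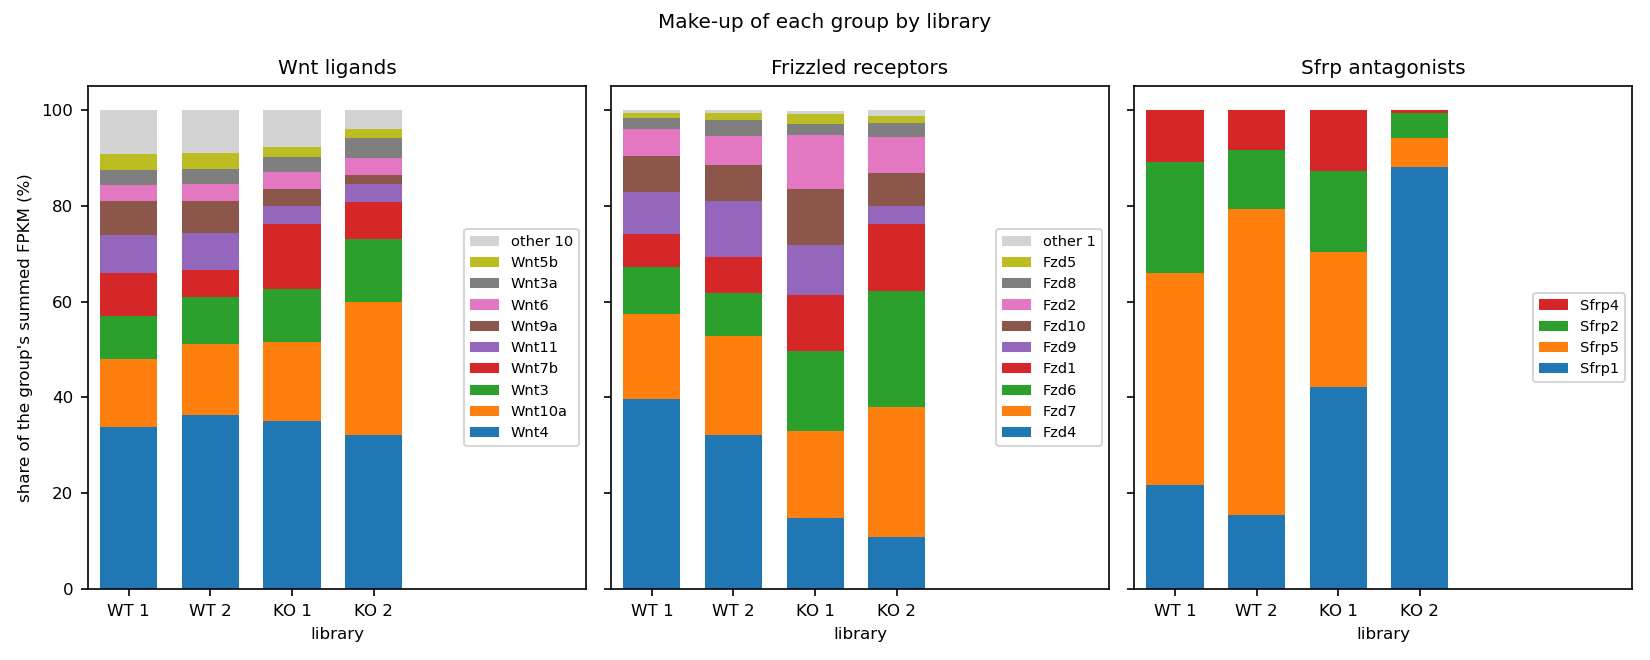
Share of each gene, in percent, in the summed FPKM of the ligands, the receptors and the Sfrp antagonists in each library. Wnt4 has the largest share of the ligand column in each library, 32.2% to 36.4%. Fzd4 shrinks from 39.7% and 32.1% in WT to 14.8% and 10.8% in KO, and Sfrp1 fills 88.2% of the Sfrp column of KO replicate 2.

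The receptors changed places. Fzd4, the Norrin and Wnt receptor of blood vessels, was the most abundant Frizzled in WT, with 27.1 and 16.3 FPKM, and had 12.6 and 10.8 FPKM in KO. It was the only receptor below WT in both KO libraries (log2 fold change -0.80, SE 0.32, unadjusted p = 0.0528 and adjusted p = 0.294 by limma). The difference was -0.45 without WT replicate 1 and -1.15 without WT replicate 2, where it passed the unadjusted p and the fold limit (adjusted p = 0.941 by limma). In KO, Fzd7 had the largest share of the Frizzled sum, 18.2% and 27.2%, followed by Fzd6 with 16.8% and 24.2%. The 7 genes of the endothelial list summed to 76.3 and 112 FPKM in WT, 103 FPKM in KO replicate 1 and 9.66 FPKM in KO replicate 2. Of the macrophage list 5 of 7 genes, and of the skeletal muscle list 5 of 6, lay below WT in both KO libraries, and the part of these 3 lists in the Fzd4 values was not tested.

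Of the 9 tested receptors, 7 were above WT in both KO libraries, against 35.3% of all tested genes. Without Fzd5, which passed the filter only through KO, this was 6 of 8, against 34.3%. Fzd6, which orients hairs across the skin as part of planar cell polarity, showed the largest difference of the receptors tested. It had 6.67 and 4.61 FPKM in WT, compared with 14.3 and 24.0 in KO, 3.39 times higher on average (log2 fold change 1.57, SE 0.35, unadjusted p = 0.00590 and adjusted p = 0.248 by limma). Fzd1 had 4.68 and 3.74 FPKM in WT, compared with 9.86 and 13.9 in KO (log2 fold change 1.30, SE 0.28). Its close relative Fzd2 had 3.90 and 3.07 FPKM in WT, compared with 9.56 and 7.49 in KO (log2 fold change 1.09, SE 0.26). For each of the 3 genes both KO libraries lay above both WT libraries. On mm9 Fzd6 lies at chr15:38837826-38869736, Fzd1 at chr5:4753839-4758216, Fzd2 at chr11:102465745-102469372 and Fzd4 at chr7:96552876-96558620.

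Fzd7, a receptor common in stem cells and the third of this subfamily, had 12.1 and 10.5 FPKM in WT, compared with 15.5 and 27.0 in KO, with KO replicate 1 close to WT. Its log2 fold change was 0.81 (SE 0.33, adjusted p = 0.301 by limma), and it was 0.43 (adjusted p = 0.717) without KO replicate 2. Without KO replicate 1 the adjusted p was 0.0471 for Fzd7, 0.0212 for Fzd1 and 0.0110 for Fzd6, in a fit where the single KO library was assumed to vary like the WT libraries and 2058 of all genes were called. Fzd10 had 5.02 and 3.89 FPKM in WT, compared with 10.1 and 6.86 in KO (log2 fold change 0.78, unadjusted p = 0.0433 and adjusted p = 0.282 by limma).

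The remaining receptors were low or even. Fzd8 had 1.55 and 1.63 FPKM in WT, compared with 2.04 and 2.92 in KO, and Fzd5 had 0.778 and 0.770 FPKM in WT, compared with 1.65 and 1.39 in KO. Neither pair of groups overlapped. Fzd3, a receptor of the planar polarity branch, was not tested, at 0.336 and 0.293 FPKM in WT, compared with 0.605 and 1.26 in KO. Fzd9 had 6.04 and 5.95 FPKM in WT, and the KO values of 8.87 and 3.67 lay on either side of them. Its log2 fold change was -0.04 (SE 0.41), and leaving out KO replicate 2 made it 0.50.

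Of the 7 tested antagonists, Sfrp1, Wif1 and Dkk3 were higher in both KO libraries, and Sfrp2, Sfrp4, Sfrp5 and Dkk2 overlapped. Without Wif1, which passed the filter only through KO, this was 2 of 6 (33.3%), near the 34.3% of all genes. All 7 had their highest value in KO replicate 1. Sfrp1, which binds Wnt proteins through a Frizzled-like domain, had 4.26 and 2.33 FPKM in WT, compared with 15.6 and 6.36 in KO (log2 fold change 1.40, SE 0.48, unadjusted p = 0.0321 and adjusted p = 0.265 by limma). The fold change was 0.81 with KO replicate 1 left out, under the fold limit, and 1.99 with KO replicate 2 left out. Wif1 had 0.865 and 0.479 FPKM in WT, compared with 5.74 and 2.38 in KO, 6.04 times higher on average (log2 fold change 1.52, SE 0.40, adjusted p = 0.248 by limma). Dkk3, a Dkk protein for which binding to Lrp co-receptors is not established, had 4.24 and 3.21 FPKM in WT, compared with 10.5 and 7.24 in KO (log2 fold change 1.05, SE 0.29, adjusted p = 0.248 by limma). On mm9 the 3 genes lie at chr8:24521974-24560104 (Sfrp1), chr10:120471060-120537698 (Wif1) and chr7:119259533-119302571 (Dkk3).

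Sfrp2 and Sfrp4, made by dermal fibroblasts and often raised in fibrotic skin, were far apart between the 2 KO libraries. Sfrp2 had 4.57 and 1.85 FPKM in WT, 6.23 FPKM in KO replicate 1 and 0.369 FPKM in KO replicate 2. For Sfrp4 the values were 2.12 and 1.26 FPKM in WT, compared with 4.72 and 0.0476 in KO, the last below the floor. Both thus had their highest and their lowest value in KO. Sfrp5 had 8.63 and 9.59 FPKM in WT, 10.4 FPKM in KO replicate 1 and 0.435 FPKM in KO replicate 2.

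The log2 fold changes of the 3 genes, -0.34 for Sfrp2, -0.12 for Sfrp4 and -1.32 for Sfrp5, had standard errors of 0.84, 0.81 and 0.97. Without KO replicate 2 they became 0.86, 1.11 and 0.18, and without KO replicate 1 they became -1.54, -1.34 and -2.81 (adjusted p = 0.0497, 0.0375 and 0.00206 by limma). These p-values come from the fit with a single KO library, which was assumed to vary like the WT libraries, and in which 2058 of all genes were called. The fibroblast list moved with them: its 8 genes summed to 364 and 271 FPKM in WT, 583 FPKM in KO replicate 1 and 52.7 FPKM in KO replicate 2, and each was lowest in that last library. KO replicate 2 was also the lowest for the summed adipocyte list (1770 and 4840 FPKM in WT, 2240 and 242 in KO), the smooth muscle and pericyte list (138 and 134 in WT, 131 and 36.6 in KO) and the endothelial list given above. The part of these cells in the Sfrp values was not tested. Set against 1000 FPKM of the fibroblast list, Sfrp2 had 12.5 and 6.83 in WT and 10.7 and 7.0 in KO, within the WT range. On that scale Sfrp4 had 5.82 and 4.66 in WT and 8.10 and 0.903 in KO, on either side of WT. Sfrp5 had 23.7 and 35.4 in WT and 17.9 and 8.25 in KO, both below WT. In bulk skin, fewer cells of a type and less RNA per cell cannot be told apart. Sfrp2 also overlaps the antisense gene Gm16790.

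Dkk2, an Lrp-binding antagonist of the dermis, had 1.19 and 0.50 FPKM in WT, compared with 2.44 and 0.684 in KO, with overlapping groups (log2 fold change 0.41, SE 0.43). Dkk1 and Dkk4, the best known Lrp antagonists and both direct targets of the pathway elsewhere, were listed at 0 in all 4 libraries. Whether such zeros are failed estimates cannot be told from the table.

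Most tested genes that load, release and receive the ligands were higher in KO. Of 7 genes for co-receptors and ligand export 5 were tested, and 4 lay above WT in both KO libraries, with a median log2 fold change of 0.67. For this and the following lists, the shares of all tested genes were 35.3% above and 20.5% below WT. Porcn, which adds the fatty acid to the serine shown above, had 7.81 and 7.43 FPKM in WT, compared with 11.4 and 15.9 in KO (log2 fold change 0.75, SE 0.27, adjusted p = 0.273 by limma). Wls, the carrier of lipid-bearing Wnt to the cell surface, had 22.3 and 18 FPKM in WT, compared with 26.8 and 39.4 in KO. Ryk, a Wnt receptor with an inactive kinase domain, had 17.7 and 14.7 FPKM in WT, compared with 22.9 and 32.2 in KO. Lrp6 lay above WT (log2 fold change 0.45), whereas Lrp5 overlapped (-0.40). None of the 5 passed the unadjusted p together with the fold limit.

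R-spondins strengthen Wnt signals by removing the ligases Rnf43 and Znrf3 from the membrane through Lgr receptors. Of the 9 genes of this list 4 were tested, and 3 were past the unadjusted p and the fold limit, against 6.16% of all genes. Of the 3, Lgr5 and Rnf43 passed the filter on low values only through KO, the group in which they are high, so nothing is read from this count. Lgr4 had 4.38 and 3.33 FPKM in WT, compared with 7.48 and 18 in KO (log2 fold change 1.40), and the follicle stem cell marker Lgr5 had 0.477 and 0.258 FPKM in WT, compared with 2.59 and 1.36 in KO (1.10). Rnf43 had 0.972 and 0.835 FPKM in WT, compared with 2.36 and 4.59 in KO (1.19). The R-spondins themselves were low. Rspo1 reached 4.03 FPKM in KO replicate 1 and 0.521 to 0.861 FPKM elsewhere, Rspo4 reached 1.29 FPKM there and 0.0738 to 0.203 FPKM elsewhere, and Rspo2 and Rspo3 stayed at or below 0.775 FPKM.

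The intracellular part of the pathway was more even. Of 10 tested genes 2 lay above and 1 below WT in both KO libraries, and the median log2 fold change was 0.24. Ctnnb1, which encodes beta-catenin, had 80.7 and 74.0 FPKM in WT, compared with 105 and 131 in KO (log2 fold change 0.59, SE 0.25, adjusted p = 0.302 by limma). Gsk3b lay above and Btrc below, by 0.33 and -0.18. Of 7 tested nuclear factors, Tcf7 (0.98), Tcf7l2 (0.89) and Pygo2 (0.36) lay above and Pygo1 (-0.45) below. Lef1, the TCF-family factor of the hair matrix, was not tested, at 0.404 and 0.0620 FPKM in WT, compared with 2.73 and 0.572 in KO.

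Genes that the pathway itself commonly induces are read as its output. Of 14 such genes 10 were tested, 9 lay above WT in both KO libraries and 0 below, with a median log2 fold change of 0.92. Notum, Rnf43 and Lgr5 passed the filter on low values only through KO, and without them 6 of 7 lay above WT, against 34.3% of all genes, with a median of 0.76. Axin2, the most widely used of them, had 4.94 and 4.47 FPKM in WT, compared with 6.86 and 10.9 in KO (log2 fold change 0.76, SE 0.30, unadjusted p = 0.0498 and adjusted p = 0.292 by limma). Past the unadjusted p and the fold limit were Notum, Rnf43, Lgr5 and Myc, with log2 fold changes of 1.28, 1.19, 1.10 and 1.13. These were 4 of the 10 tested, against 6.16% of all tested genes. Without the genes that passed only through KO this left Myc, 1 of 7, against 5.78%. Notum, which strips the fatty acid from the serine, had 0.355 and 0.467 FPKM in WT, compared with 3.24 and 1.79 in KO. Nkd2, an inhibitor of Dishevelled, had 0.635 and 1.03 FPKM in WT, compared with 2.49 and 2.17 in KO. Over all 6 lists 37 of 50 genes were tested, 6 were past these limits higher and 0 lower, and 20 lay above and 3 below WT. Without the 4 genes that passed only through KO, Kremen2 among them, 3 of 33 were past the limits (9.09%, against 5.78% of all genes), and 16 lay above and 3 below WT. Several of these genes, such as Lgr5 and Myc, also mark follicle or growing cells.

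**Figure D4:**
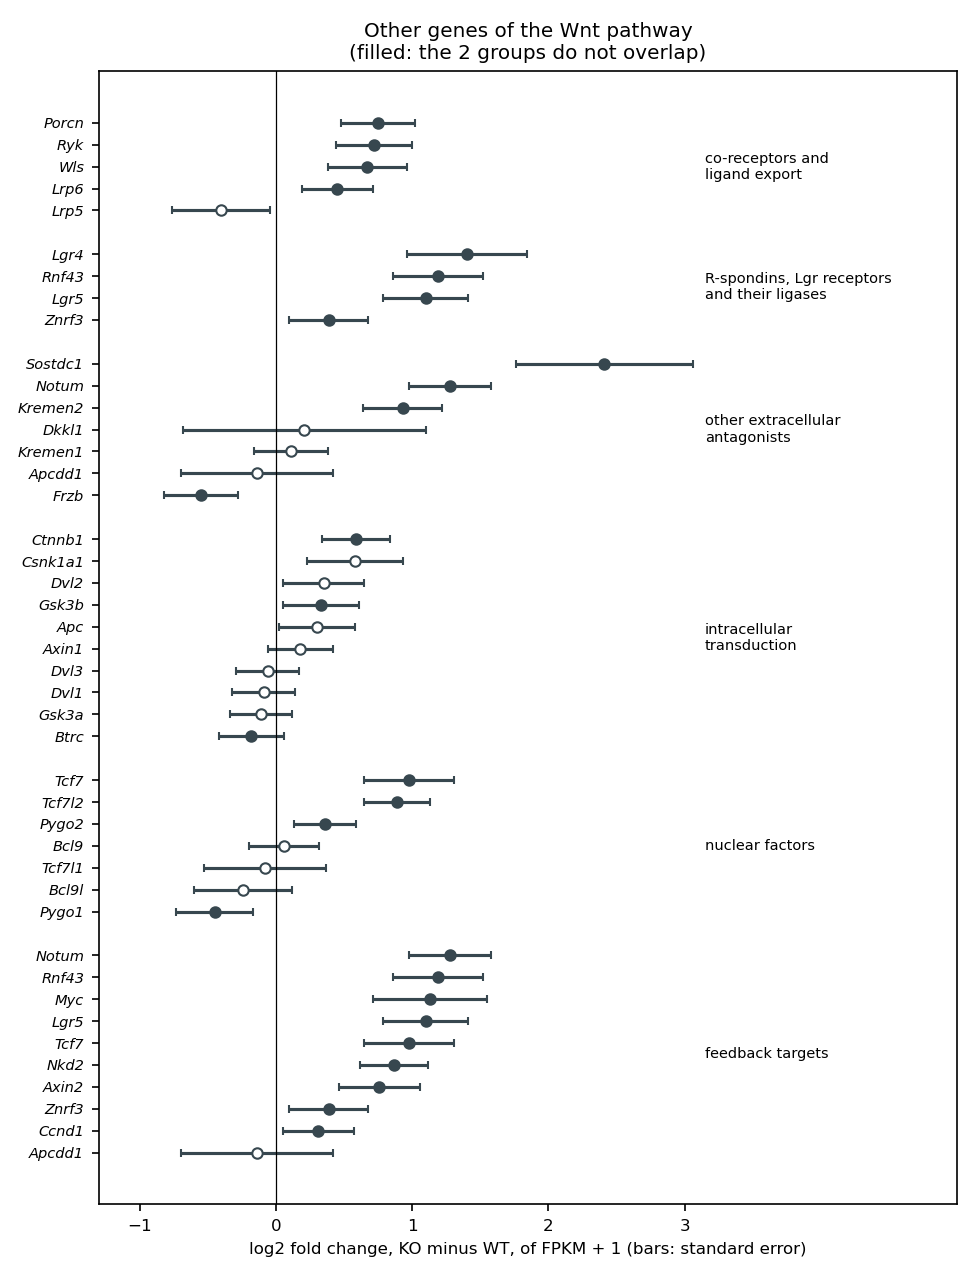
Log2 fold change (KO minus WT) with standard error of the tested genes of 6 Wnt pathway lists. Filled points mark genes whose KO libraries both lie on one side of both WT libraries, and 6 genes (Apcdd1, Lgr5, Notum, Rnf43, Tcf7 and Znrf3) stand in 2 lists. The Lgr receptor and ligase genes of the R-spondin list, in which no R-spondin was tested, lie to the right of 0. The feedback list lies almost wholly to the right of 0, and the intracellular list lies around 0. Kremen2, Lgr5, Notum and Rnf43 passed the filter only through KO.

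Epithelial markers moved with the higher genes. The basal keratins Krt5 and Krt14 together had 2060 and 1980 FPKM in WT, compared with 4420 and 4400 in KO, and Trp63, the p63 factor of basal cells, had 17.0 and 11.3 FPKM in WT, compared with 32.7 and 56.8 in KO. The keratinocyte list as a whole was mixed, with 3 of 6 genes above WT in both KO libraries and sums of 4940 and 3550 FPKM in WT, compared with 10600 and 5160 in KO. Of 5 follicle bulge markers 5 lay above WT (4 of 4 without Lgr5), with sums of 142 and 131 FPKM in WT, compared with 256 and 711 in KO. The 15 hair matrix and inner root sheath genes were all highest in KO replicate 1, where they summed to 388 FPKM compared with 10.6 and 1.90 FPKM in WT and with 15.8 in KO replicate 2. Of their defining keratins, Krt25 was at 0 in WT replicate 2 and KO replicate 2, Krt27, Krt33b, Krt35, Krt72 and Krt73 were at 0 in WT replicate 2, and Krt86 was at 0 in WT replicate 1. Their part in the ligand and receptor values was not tested.

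Expressed per 1000 FPKM of Krt5 and Krt14, 1 of the 28 genes lay above WT in both KO libraries and 13 lay below, whereas 16 and 3 did so by FPKM. Wnt3 had 2.53 and 2.48 in WT and 2.33 and 2.29 in KO on this scale, now slightly below WT, and Wnt10a had 3.98 and 3.77 in WT and 3.45 and 4.85 in KO. Fzd6 had 3.24 and 2.33 in WT and 3.23 and 5.46 in KO, and Fzd2 had 1.89 and 1.55 in WT and 2.16 and 1.70 in KO. Wif1 was the gene above WT, at 0.421 and 0.242 in WT and 1.30 and 0.540 in KO. Fzd4, one of the 13 below WT, had 13.2 and 8.24 in WT and 2.86 and 2.45 in KO. Of all tested genes 2.72% lay above and 77.9% below on this scale, because its divisor itself was more than 2 times higher in KO. Per 1000 FPKM of the fibroblast list, which was lowest in KO replicate 2, 10 of the 28 genes lay above WT and 2 below, against 8.37% and 3.49% of all tested genes.

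**Figure D5:**
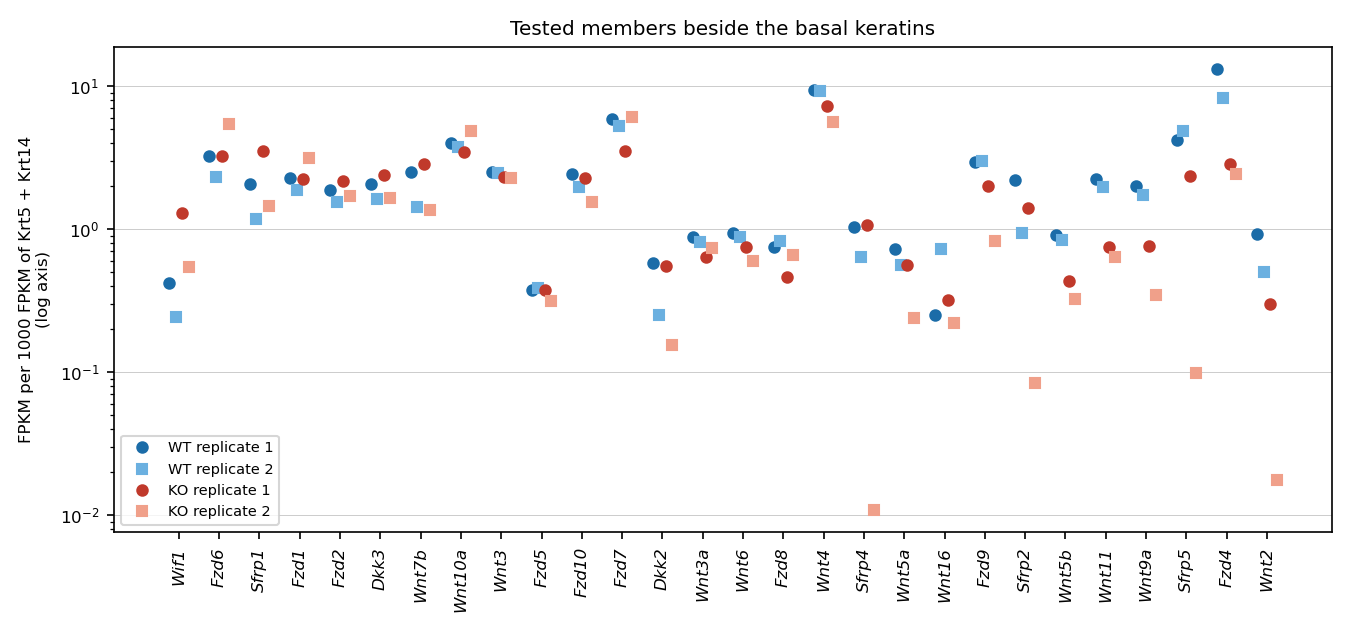
FPKM of the 28 tested genes per 1000 FPKM of Krt5 and Krt14 together, on a log axis, in each library, ordered by the ratio of KO to WT means. Wif1, at the left, is the only gene with both KO points above both WT points, and the points of Wnt3 and Fzd5 lie close together.

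The promoters were searched for the core of the TCF and LEF motif, CTTTGAT or CTTTGTT, on both strands. RefSeq windows of 300 bases on GRCm38.p6, most of each window lying before the start site, were at hand for 26 of the 38 genes. These genes have 29 windows, since some have more than 1 start site, and the motif stood in 5 of the 29 (17.2%), against 9.3% of 32851 promoters. They were Wnt3 and Fzd7, higher in KO, Wnt11, lower in KO, Wnt5b, which overlapped, and Dkk1, listed at 0. The 30 bases around the motif, in capitals, are shown for the first 3 to set a match beside each direction of difference; in Wnt3 the match follows the start site, and in the other genes it precedes it.
Wnt3: cctcaagtggaCTTTGTTccaactattggg
Fzd7: tccacagagaaAACAAAGcgcgctattgga
Wnt11: gacgtgggcggATCAAAGcgacggtccgcg

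On GRCm38.p6 these windows are chr11:103774182-103774211, chr1:59482006-59482035 and chr7:98835050-98835079, all on the plus strand, and in Fzd7 and Wnt11 the match is on the opposite strand. A match of 7 letters is a description of the window and not a bound site. The 3 genes with a match and a difference did not move one way, and the windows of Fzd1 and Wif1 held no match, which says only that these letters are absent there.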

How the data were processed

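Paired-end RNA-seq of BLM-treated skin was taken from 1 deposited table of 24441 genes and 4 libraries, each assigned by its labels. The deposited values are FPKM, although the table is named as counts: 99.993% of values above 0 are not whole. The authors aligned reads to mm9, and the submitters' processing notes name HISAT2 2.0.1 and StringTie 2.0.6. The program behind the FPKM values is not given in the sources used here. Genes reaching 1 FPKM in 2 or more libraries entered a fit on log2(FPKM + 1) by limma 3.58.1 in R 4.3.3, with genotype as the only term, a mean-variance trend and Benjamini-Hochberg adjustment over all 13027 genes. The script was tested on simulated data. Every member of the symbol rule is described; pathway and marker lists give counts and sums, and genes with the largest differences among those without overlap. Members and lists were chosen with earlier results of these data known. Other pseudocounts, filters, scalings, a fit without trend, a replicate block and omission of each library were tried. Tables and sequences used Python 3.11.15, pandas 2.3.3 and Biopython 1.88.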

Additional observations from a re-analysis of the deposited data

How the results depend on the processing

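No setting other than leaving out a library turned the direction of any of the 28 genes. With median-ratio factors the genes higher in KO past the unadjusted p and the fold limit numbered 4, and the median log2 fold change of all genes moved from 0.11 to 0.01. With no filter on low values the median of the Wnt ligands was 0.12, since 7 more ligands entered it. Leaving out 1 library at a time gave 2 to 9 higher genes, against 2.04% to 10.8% of all tested genes. It gave 0 to 4 lower genes, against 1.86% to 12.3%. The 9 came without KO replicate 2, where the shares of all genes were 5.63% higher and 2.56% lower. After adjustment 0 to 7 genes were called (7 without KO replicate 1, where 2058 of all genes were called). Each omission leaves a single library in 1 group, so nothing is read from these counts. Between 3 and 10 genes lay below WT in the KO libraries kept, against 26.6% to 37.0% of all genes. The ligand median was 0.20 to 0.56. Over the same omissions the log2 fold change ran from -1.54 to 0.86 for Sfrp2, -1.34 to 1.11 for Sfrp4, -2.81 to 0.18 for Sfrp5, -0.11 to 0.93 for Dkk2, -0.17 to 0.61 for Wnt5a, -0.19 to 0.07 for Wnt5b, -0.16 to 0.52 for Wnt16 and -0.58 to 0.50 for Fzd9. Without a change of direction it ran from 0.52 to 1.49 for Wnt7b, 0.37 to 0.74 for Wnt4, 0.23 to 0.60 for Fzd8 and 0.81 to 1.99 for Sfrp1. The cause was not tested. Same-numbered WT and KO libraries did not deviate together (r = -0.20 over 13027 genes), and no source ties the numbers. The fit with the replicate block gave 8 higher genes, Wnt7b now among them, against 6.96% of all tested genes. It gave 0 lower genes, against 5.27%, and called 0 after adjustment. A crossed block, chosen after seeing the data, gave 6 higher and 0 lower genes, against 6.29% and 5.23% of all tested genes. Reading the fit over the 26 genes that reached 1 FPKM in both genotypes was also chosen after seeing the data. This reading gave 6 higher and 0 lower genes, against 5.78% and 3.89% of all genes, and an antagonist median of 0.15. Depth limits the genes near the floor: 8 of the 38 never reached 1 FPKM. With 2 libraries per genotype, small differences may have been missed, and no limit of detection was computed.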

Other observations

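Extracellular antagonists outside the Sfrp and Dkk families were also measured, and 7 of 9 could be tested. Of the 7, 3 lay above WT in both KO libraries and 1 below, against 35.3% and 20.5% of all tested genes. Kremen2 and Notum passed the filter on low values only through KO. Without them 1 of 5 lay above WT and 1 below, against 34.3% and 20.0%. Apcdd1, Dkkl1 and Kremen1 overlapped between genotypes. Sostdc1, a secreted inhibitor of Wnt and BMP signals that is made in the follicle, had 3.74 and 4.61 FPKM in WT, compared with 13.0 and 52.6 in KO. Its log2 fold change was 2.41 (SE 0.65, unadjusted p = 0.0136 and adjusted p = 0.248 by limma). Kremen2, which works with Dkk proteins at the Lrp co-receptors, had 0.588 and 0.681 FPKM in WT, compared with 1.57 and 2.77 in KO. Frzb, the Sfrp-like antagonist of cartilage, had 3.63 and 2.44 FPKM in WT, compared with 1.69 and 1.77 in KO (log2 fold change -0.55). It was the only gene of this list below WT in both KO libraries.

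Dermal papilla markers were sparse. Of 5 such genes 1 was tested, Crabp1, with 6.23 and 7.64 FPKM in WT, compared with 25.8 and 12.5 in KO, while Corin stayed at or below 0.879 FPKM. Melanocyte genes, which sit in growing follicles, summed to 8.91 and 5.23 FPKM in WT, 78.5 FPKM in KO replicate 1 and 6.29 FPKM in KO replicate 2, and thus stood highest in the library with the highest hair matrix sum.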
